A study of Mus musculus with 2 samples.

Results

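The genes described here are Il33, Il1rl1, Il1rap, Il5, Il13, Areg and Tslp, which encode the cytokine IL-33, its receptor ST2 (Il1rl1) with the co-receptor IL-1RAP (Il1rap), the effectors IL-5, IL-13 and amphiregulin, and the related alarm cytokine TSLP. They were chosen by symbol, and all 7 were among the 27998 genes measured. The samples were cells of the stromal vascular fraction, which is what remains of fat tissue once adipocytes are removed, from epididymal white adipose tissue of wild-type male C57BL/6J mice aged 18 weeks. One group ate a normal chow diet (NCD) and the other a high fat diet (HFD) for 12 weeks, and all cells of both groups went through collagenase digestion and droplet capture with a 10x 3′ kit. Each diet was 1 library, and the labels do not say how many animals it held. The diet and the library therefore cannot be told apart, no test was made, and every difference below describes 2 libraries.

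The NCD library held 7365 cell barcodes and 33825653 UMIs (unique molecular identifiers, each counting 1 captured transcript), and the HFD library 6840 barcodes and 18623508 UMIs. After filtering, 7163 NCD and 6444 HFD cells were kept. The median depth was 4230 UMIs per NCD barcode and 2020 per HFD barcode. The libraries shared 64 barcodes. Cells were grouped by marker genes, and each class name means a profile like that cell type. The stromal class, the progenitors, expressed all 10 of its markers above the remaining cells in both libraries. The ILC2 class (group 2 innate lymphoid cells) expressed 8 of 9 markers above the remaining cells in NCD, with Nmur1 at 0, and 7 of 9 in HFD, with Il17rb and Nmur1 at 0. Free RNA, which is RNA of lysed cells that enters droplets with other cells, was more abundant in HFD: macrophage markers in progenitors stood at 3.38% of their whole-library level in NCD and 24.2% in HFD, and stromal markers in macrophages at 4.81% and 30.9%.

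IL-33 is stored in the nucleus of stromal, mesothelial and other barrier cells and is released when they are damaged or strained. It binds ST2, which pairs with IL-1RAP and signals through MyD88 to NF-kB in ILC2, regulatory T cells, mast cells and basophils. In adipose tissue this pathway is known for keeping ILC2 active, and their IL-5 and IL-13 sustain eosinophils and alternatively activated macrophages, while amphiregulin is a ligand of the EGF receptor and TSLP acts through Crlf2 and Il7r. A 3′ gene count does not separate the soluble from the membrane form of ST2.

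The DNA before the start sites of the receptor and of both interleukins is shown because GATA3, the defining transcription factor of ILC2, recognises short GATA motifs and these 3 genes were the members whose windows held one. Windows of 250 bases upstream of each RefSeq transcript start on GRCm38.p6 were searched on both strands for the motif AGATAA and its variants AGATAG plus TGATAA, and also TGATAG, with no overlapping matches in the members. Of 32851 such windows of all genes, 26.5% held at least 1 match and 0.0426% held 5 or more. The members had 8 windows for 6 genes, and Tslp had no entry. The windows are written 5′ to 3′ on the strand of the gene, and capitals mark the motif.
Il1rl1 first start, chr1:40429320-40429569, plus strand: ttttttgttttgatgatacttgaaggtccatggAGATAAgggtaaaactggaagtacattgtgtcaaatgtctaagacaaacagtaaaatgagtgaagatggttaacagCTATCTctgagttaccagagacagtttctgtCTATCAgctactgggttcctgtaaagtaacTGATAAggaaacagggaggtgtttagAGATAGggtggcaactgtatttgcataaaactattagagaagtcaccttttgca
Il1rl1 second start, chr1:40439379-40439628, plus strand: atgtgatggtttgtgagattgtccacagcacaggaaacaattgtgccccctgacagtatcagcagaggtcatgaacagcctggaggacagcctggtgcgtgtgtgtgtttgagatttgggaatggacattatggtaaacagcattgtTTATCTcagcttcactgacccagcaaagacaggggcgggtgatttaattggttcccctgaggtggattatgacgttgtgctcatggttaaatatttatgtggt
Il5, chr11:53720544-53720793, plus strand: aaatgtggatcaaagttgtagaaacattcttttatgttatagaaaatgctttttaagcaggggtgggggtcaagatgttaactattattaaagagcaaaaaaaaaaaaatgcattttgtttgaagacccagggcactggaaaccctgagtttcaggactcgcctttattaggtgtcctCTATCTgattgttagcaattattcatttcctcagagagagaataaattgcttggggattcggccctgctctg
Il13, chr11:53634703-53634952, minus strand: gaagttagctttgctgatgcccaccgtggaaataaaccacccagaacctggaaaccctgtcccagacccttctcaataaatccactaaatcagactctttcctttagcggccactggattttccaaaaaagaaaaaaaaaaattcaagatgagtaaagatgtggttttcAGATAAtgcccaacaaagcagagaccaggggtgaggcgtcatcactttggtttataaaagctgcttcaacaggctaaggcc
The window of the first Il1rl1 start held 5 matches, whose first bases lay 217, 141, 110, 80 and 54 bases before the start. The second start held 1 match, 103 bases before it. The Il5 window held 1 match 72 bases upstream, and the Il13 window 1 match 81 bases upstream. Neither Il33 window held a match, nor did those of Il1rap and Areg. A match is only a run of letters, and no binding was measured.

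In GENCODE vM21 on GRCm38, Il33 lies on chromosome 19 at 29925114 to 29960718, Il1rl1 on chromosome 1 at 40429570 to 40465415, Il1rap on chromosome 16 at 26581704 to 26730117, Areg on chromosome 5 at 91139599 to 91148432, and Tslp on chromosome 18 at 32815383 to 32819797, all on the plus strand. Il5 lies on chromosome 11 at 53720794 to 53725106 on the plus strand and Il13 on the same chromosome at 53631324 to 53634702 on the minus strand. All 7 are protein-coding.

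Over all barcodes, the ligand Il33 was higher in HFD and the receptor Il1rl1 lower. Levels are CPM (UMIs per 1000000 of the summed UMIs), and brackets hold exact 95% intervals (Poisson for a level, conditional binomial for a ratio, Clopper-Pearson for a share), which cover counting error only. Il33 had 407 UMIs in NCD (12.0 CPM) and 620 in HFD (33.3), a level 2.77-fold higher in HFD (2.44 to 3.14). Il1rl1 had 700 UMIs in NCD (20.7 CPM) and 178 in HFD (9.56), a level 2.17-fold lower in HFD (1.83 to 2.57). The ligand and its receptor thus differed in opposite directions between the libraries.

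Of the remaining members, Tslp and Areg were also lower in HFD. Tslp had 1362 UMIs (40.3 CPM) in NCD and 321 (17.2) in HFD, 2.34-fold lower (2.07 to 2.65), and Areg had 495 (14.6) and 107 (5.75), 2.55-fold lower (2.06 to 3.17). Il1rap stood at 5.0 and 4.08 CPM, a ratio whose interval held 1 (1.22-fold lower in HFD, 0.929 to 1.63). Il5 was counted 22 times in NCD and 0 times in HFD, which is at least 4.04-fold lower with 3 UMIs as the limit for a count of 0. Il13 was the other member with a higher HFD level, at 6 UMIs in NCD and 18 in HFD (5.45-fold, 2.07 to 16.8), and in each library all its UMIs lay in 6 cells. Among all genes with at least 1 CPM in either library, 4.45% were over 2-fold higher in HFD and 7.69% over 2-fold lower. Il5 and Il13 were under that level.

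**Figure D1:**
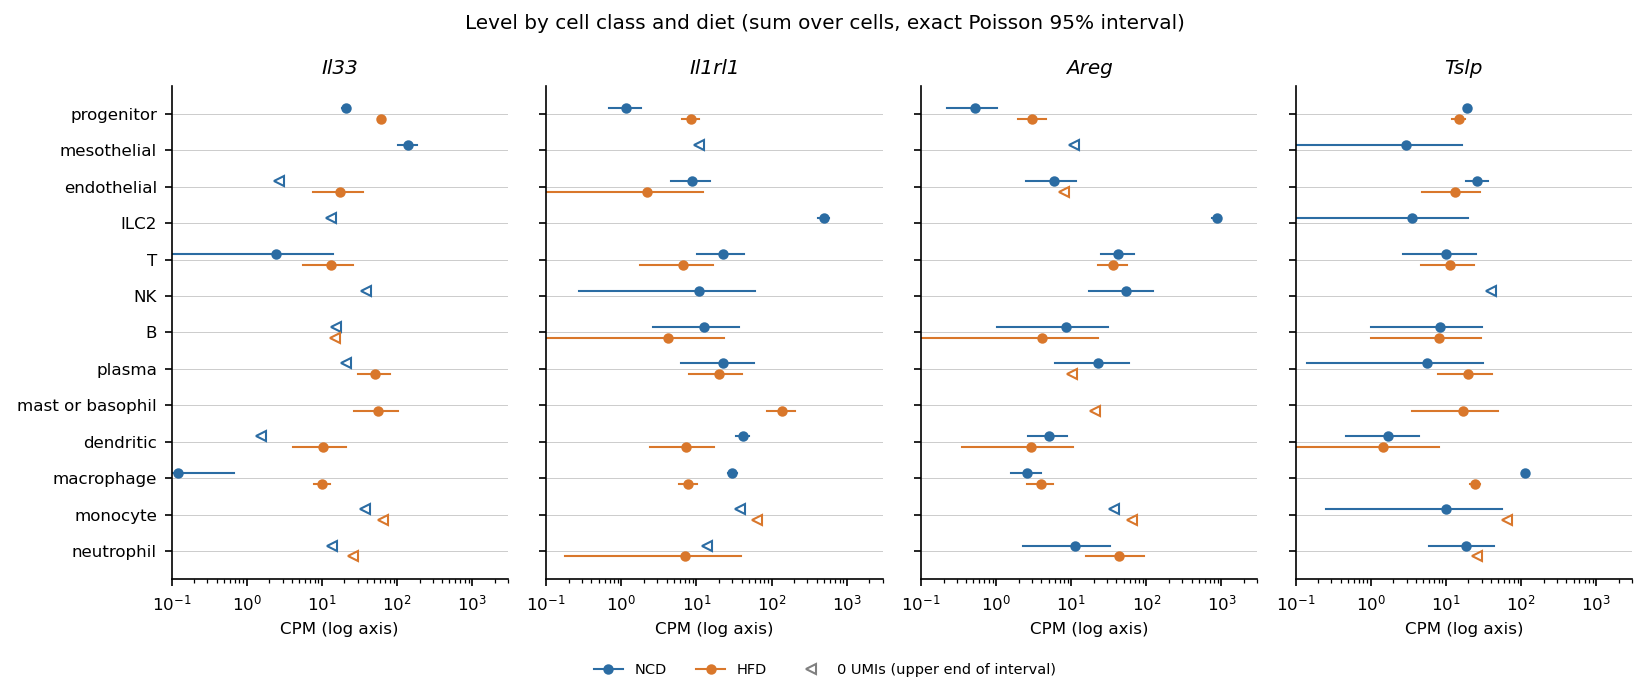
Level of Il33, Il1rl1, Areg and Tslp in each cell class with at least 20 cells in that library (CPM of the class sum, log axis), in blue for NCD and orange for HFD. Points are sums over cells, lines are exact Poisson 95% intervals, some of which run past the left edge of the axis, and open triangles mark the upper end of the interval where no UMI was counted. Il33 is highest in NCD mesothelial cells and Il1rl1 and Areg are highest in NCD ILC2.

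Il33 was mainly a transcript of progenitors and mesothelial cells. In NCD the mesothelial class, which lines the surface of the fat pad, stood highest at 140.0 CPM (103 to 186), from 48 UMIs in 32 of 52 cells. Progenitors followed at 21.1 CPM (18.8 to 23.5; 324 UMIs in 3229 cells), and these 2 intervals did not overlap. NCD macrophages held 1 Il33 UMI in 2110 cells, and NCD dendritic cells, endothelial cells and ILC2 held none. Together progenitors and mesothelial cells held 95.9% of the Il33 UMIs of kept NCD cells.

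In HFD the progenitor level was 61.3 CPM (55.9 to 67.2; 462 UMIs in 3025 cells), 2.91-fold higher than in NCD (2.52 to 3.37). Of all genes with at least 10 CPM in progenitors, 5.27% were over 2-fold higher in HFD. Cells were thinned to 2000 UMIs each to compare shares of cells, which left out 175 NCD and 1539 HFD progenitors. An Il33 UMI was then found in 3.86% of NCD progenitors (3.21 to 4.61) and 10.0% of HFD progenitors (8.55 to 11.7). Without thinning the shares were 7.15% and 12.2%. The same thinning gave 0 of 1885 NCD macrophages, with an upper limit of 0.196%, and 1.96% of HFD macrophages (1.26 to 2.91), so the HFD progenitor share stood above that of a class with little Il33 of its own.

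The HFD macrophages held 69 Il33 UMIs, 10.0 CPM. The amount that free RNA alone would give, taken as the library's Il33 level times the stromal marker percentage, was 10.3 CPM. HFD dendritic cells held 10.3 CPM against a free RNA level of 7.09, HFD endothelial cells 17.7 against 14.7, and HFD T cells 13.1 against 15.7. HFD plasma cells held 50.8 CPM (18 UMIs), with stromal markers at 62.0% of their library level. HFD mast cells or basophils held 56.5 (27.1 to 104; 10 UMIs), with these markers at 112%. Both stood above the 33.3 CPM of the whole HFD library, which lay within the latter interval, and their source was not tested. In progenitors the free RNA level for Il33 was 0.407 CPM in NCD and 8.05 in HFD, below the measured level in each library. Over clusters in which foreign markers stood at or below 25% of their library level, which leaves out 980 HFD progenitors, the progenitor level was 21.1 in NCD and 69.0 in HFD.

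The HFD mesothelial class held 6 cells and 3 Il33 UMIs, so its level of 139 CPM (28.7 to 406) was not compared with NCD. Mesothelial cells were 0.726% of kept NCD cells (0.543 to 0.951) and 0.0931% of kept HFD cells (0.0342 to 0.203). In NCD these cells held 1.06% of the UMIs but 12.4% of the Il33 UMIs (9.26 to 16.1), and in HFD 0.504%. A further cluster of 54 HFD and 2 NCD cells expressed all 10 mesothelial markers above the remaining cells but was led by Crisp1, Akr1b7, Spink8 and Defb42, genes of the epididymal epithelium next to this fat depot. It was left unnamed by a rule chosen after the clusters were seen, and the Il33 level of its HFD cells was 30.0 CPM (8.16 to 76.7; 4 UMIs). The difference in share rests on that rule: with the cluster counted as mesothelial, an alternative also chosen after seeing the data, the class was 0.754% of kept NCD cells (0.567 to 0.983) and 0.931% of kept HFD cells (0.711 to 1.2). Its Il33 level was then 134 CPM (98.8 to 177; 49 UMIs) in NCD and 45.1 (18.1 to 93.0; 7 UMIs) in HFD, a ratio of 0.338 (0.129 to 0.75), and it held 12.6% and 1.18% of the Il33 UMIs.

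**Figure D2:**
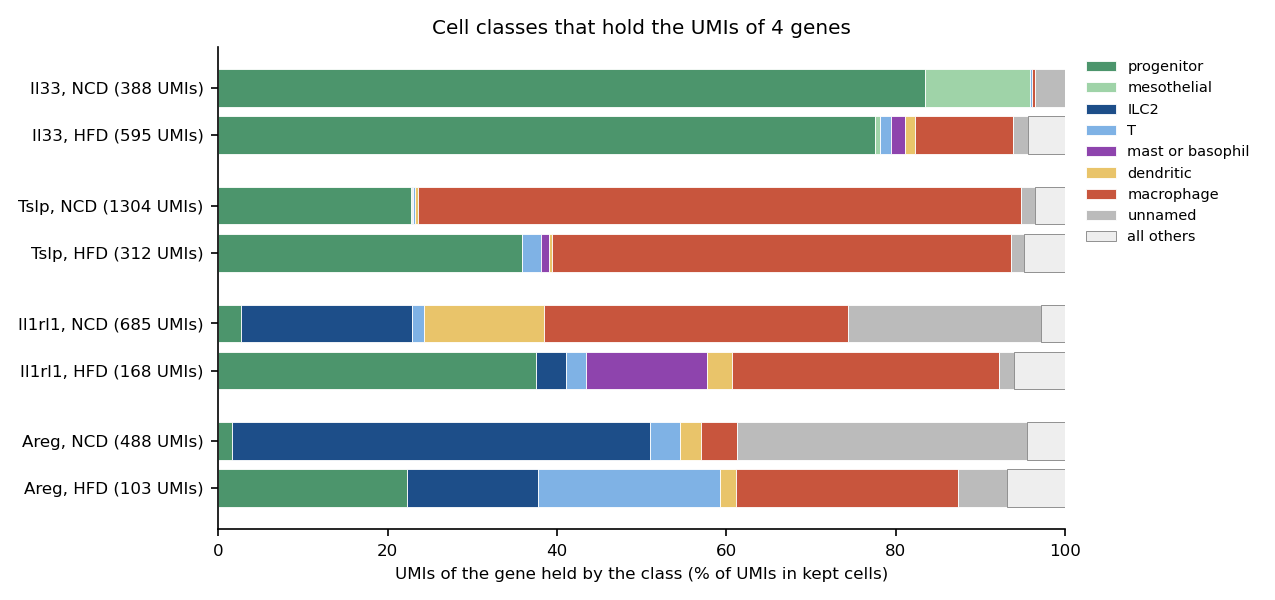
Share of each gene's UMIs in kept cells (percent, horizontal axis) held by each cell class, with 1 bar per gene and library and the number of UMIs in brackets. Progenitors hold most Il33 UMIs in both libraries, and the dark blue ILC2 share of Il1rl1 is 20.3% in NCD and 3.57% in HFD.

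Progenitors were not uniform in Il33. In NCD the interstitial progenitors, a Dpp4- and Pi16-marked subset, held 47.4 CPM (40.3 to 55.5; 157 UMIs in 659 cells), and the progenitors outside the named subsets 10.0. The F3 Gdf10 subset stood between them at 28.7 (22.3 to 36.4). In HFD the interstitial subset held 66.4 (49.5 to 87.4; 51 UMIs in 289 cells), the remaining progenitors 60.6, and the committed preadipocytes 58.8 (28.2 to 108; 10 UMIs in 78 cells), and the 2 intervals printed here overlapped. The HFD level was 1.4-fold higher in the interstitial subset (1.0 to 1.93) and 6.05-fold higher in the remaining progenitors (4.83 to 7.63).

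Different clusters held most of the progenitors in the 2 libraries, and few had cells of both. NCD progenitors were mainly clusters led by Sult1e1 and Inmt, Hsd11b1 and Inmt, Smpd3 and Abca8a, Cilp and Sfrp4, and Efhd1 and Smpd3, with Il33 levels of 5.17, 4.06, 8.86, 32.5 and 45.8 CPM in that order. HFD progenitors were mainly 2 clusters led by Timp1, an inhibitor of matrix metalloproteinases, and Mmp3, a matrix metalloproteinase, with 69.8 and 41.8 CPM, a cluster led by Mdk, Timp1 and Mmp3, and one led by Sfrp4 and Pi16 with 55.1. The lower of the 2 Timp1 and Mmp3 clusters was also the one where macrophage markers stood at 56.7% of their library level.

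Clusters with at least 20 cells of each library gave smaller differences than the class as a whole, except one that rests on 3 HFD UMIs. In the Efhd1 and Smpd3 cluster, the main interstitial one, Il33 stood at 45.8 CPM in 709 NCD cells and 75.5 (48.4 to 112) in 61 HFD cells, 1.65-fold higher (1.03 to 2.54). Its median depth was near equal, at 4974 and 5009 UMIs per cell. In the Cilp and Sfrp4 cluster the levels were 32.5 and 49.0, with an interval that held 1 (0.58 to 3.31). In the Smpd3 and Abca8a cluster they were 8.86 and 33.2, the latter from 3 UMIs (ratio 3.75, 0.721 to 12.4).

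The Mdk, Timp1 and Mmp3 cluster was the one shared cluster with a lower HFD level, at 111 CPM in 37 NCD cells and 80.6 (67.4 to 95.6; 131 UMIs) in 423 HFD cells (1.37-fold lower, 0.865 to 2.1). A single NCD cell held 17 of the 26 NCD UMIs there, and without it the NCD level was 40.2. Over all NCD progenitors 307 UMIs were left without that cell.

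**Figure D3:**
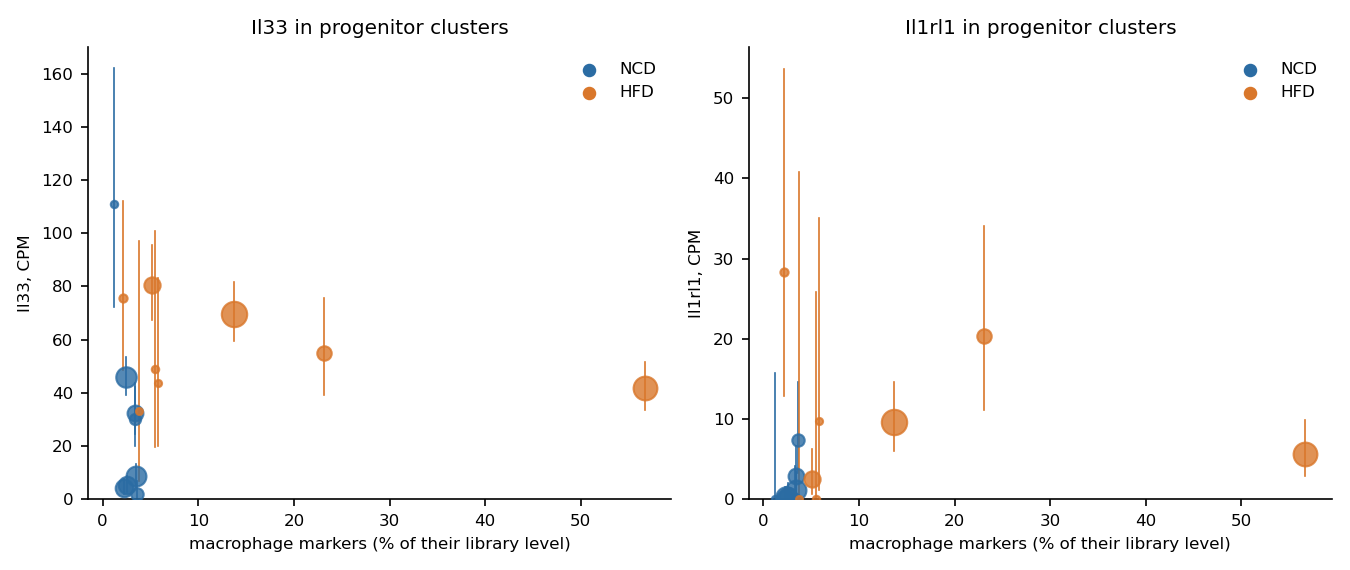
Il33 (left) and Il1rl1 (right) in each progenitor cluster (CPM, vertical axis) against macrophage markers there as a percentage of their library level (horizontal axis). Each point is 1 cluster in 1 library with at least 20 cells, larger points hold more cells, and lines are exact Poisson 95% intervals. HFD clusters spread from 2.15% to 56.7% in macrophage markers, while no NCD cluster passes 5%.

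The genes closest to Il33 in pattern were Slc4a4, a sodium bicarbonate cotransporter (Pearson r = 0.94), Fgf18, a fibroblast growth factor (0.92), Tmem45a (0.92), Evc2, a protein of the primary cilium (0.92), and Bnc2, a zinc finger protein of mesenchymal cells (0.91). These correlations are over 23 sums of class and library of log2(CPM + 1) among 11977 genes. The sums share their libraries and depth, and the values are a description.

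The receptor Il1rl1 was highest in ILC2. In NCD the ILC2 class held 496 CPM (417 to 586), from 139 UMIs in 73 of 105 cells (69.5%). B cells, given for comparison, had a UMI in 3.08% of 65 NCD cells at a median depth of 2683 UMIs, against 2376 in ILC2. NCD unnamed cells followed at 49.0 CPM (41.6 to 57.3; 156 UMIs), then dendritic cells at 41.2 (33.4 to 50.3), macrophages at 30.1 (26.5 to 34.2), plasma cells at 22.7 (6.18 to 58.1; 4 UMIs) and T cells at 22.4 (10.3 to 42.6). Below ILC2, each of these overlapped with the next in its interval. NCD progenitors held 1.17 CPM and NCD mesothelial cells none.

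The 7 HFD ILC2 held 6 Il1rl1 UMIs in 3 cells, 313 CPM (115 to 681), an interval that overlapped that of NCD. What differed in size was the class: ILC2 were 1.47% of kept NCD cells (1.2 to 1.77) and 0.109% of kept HFD cells (0.0437 to 0.224). Over ILC2, T and NK cells together (256 NCD and 282 HFD lymphoid cells), Il1rl1 was at 192 CPM in NCD and 15 (7.17 to 27.5) in HFD, 12.8-fold lower (6.8 to 27.3). Of all genes with at least 10 CPM in lymphoid cells, 12.3% were over 2-fold lower in HFD. T cells alone held 9 UMIs in NCD and 4 in HFD, 3.43-fold lower with an interval that held 1 (0.956 to 15.2). The 4 HFD UMIs lay in a cluster of 165 HFD cells where stromal markers stood at 75.7% of their library level. A lower level in the lymphoid sum goes with 105 against 7 ILC2 in it.

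Myeloid cells were the largest store of Il1rl1 UMIs in NCD. Macrophages held 35.9% of them, unnamed cells 22.8%, ILC2 20.3% and dendritic cells 14.2%. Of all UMIs of kept NCD cells these classes held 25.2%, 9.81%, only 0.864% and 7.25% in that order. The level in macrophages was 30.1 CPM in NCD and 7.72 in HFD, 3.91-fold lower (2.89 to 5.36). In dendritic cells it was 41.2 in NCD and 7.33 (5 UMIs) in HFD, 5.62-fold lower (2.33 to 17.7). Of all genes, 10.8% were over 2-fold lower in HFD macrophages and 9.17% in HFD dendritic cells. The thinned share of macrophages with a UMI was 5.57% in NCD (4.58 to 6.7) and 0.736% in HFD (0.337 to 1.39).

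Within NCD dendritic cells the level went with the cluster. A cluster led by Ccl17, Cd209a and Mgl2, genes of the monocyte-derived and type 2 conventional kind, held 101 CPM (74.2 to 134), and one led by Ccl17, Cd24a and Plbd1 with Irf8 and Xcr1, genes of the type 1 conventional kind, held 6.81 (2.21 to 15.9). Most HFD dendritic cells were in a cluster led by Cd24a and Clec9a with Xcr1, which held 7.59 (2 UMIs in 110 cells). The dendritic difference between libraries therefore compares different clusters. In the Klrd1, Cd209a and Cd7 cluster, with cells of both, the values were 40.4 and 17.3 with an interval that held 1 (2.33-fold lower in HFD, 0.496 to 21.9).

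Macrophages too came mainly from different clusters. In NCD the largest was led by Cd209f, Lyve1 and Retnla, markers of resident macrophages, with 21.7 CPM of Il1rl1 (17.9 to 26.1), and one led by Ccl12, Mgl2 and Retnla held 49.1 (40.1 to 59.5). In HFD the largest were led by Mmp12 with Trem2 or with Gpnmb and Spp1, markers of lipid-handling macrophages, with 10.1 and 5.56. The 40 HFD cells of the Cd209f and Lyve1 cluster held 3 UMIs, 15 CPM, and the ratio to NCD had an interval that held 1 (1.45-fold lower in HFD, 0.483 to 7.13). The dividing macrophages, led by Birc5 and Stmn1, were at 50.4 in NCD and 6.21 (2 UMIs) in HFD, 8.11-fold lower (1.73 to 76.1).

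Of the NCD unnamed clusters, one led by Lyz1, Retnla and Ear2 held 55.7 CPM (46 to 66.8; 116 UMIs in 402 cells). A cluster of 46 cells that mixed Ccl5, Cd3g and Nkg7 of lymphocytes with Lyz1 and Ccl17 of myeloid cells held 110.0 (78.0 to 151). Its best match was T cells, with 8 T cell markers past 1.5-fold. It was left unnamed because the first-round cluster it came from best matched another lineage and shared more of its leading genes.

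**Figure D4:**
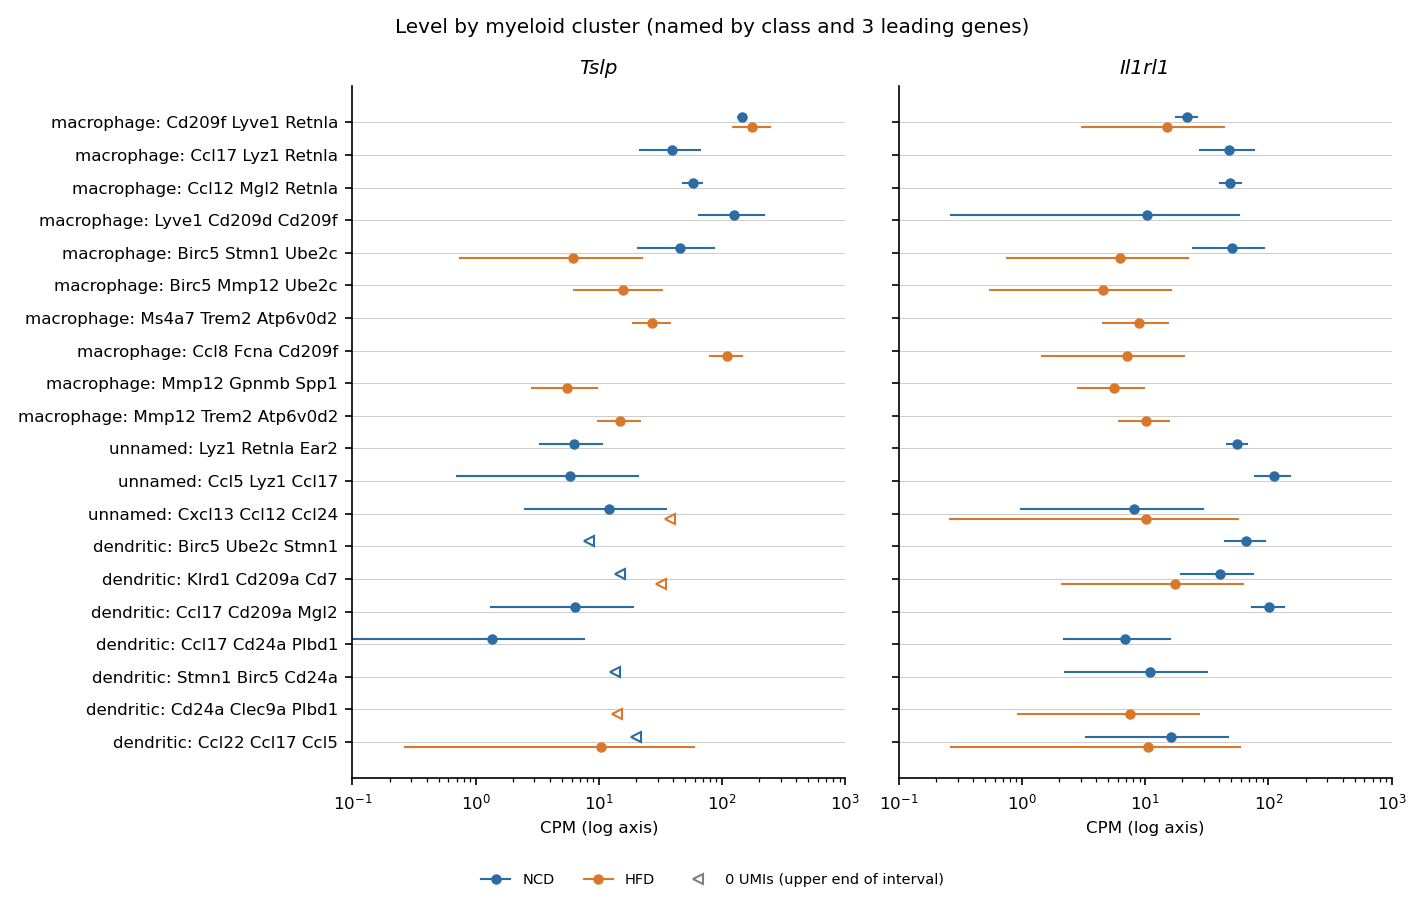
Level of Tslp (left) and Il1rl1 (right) in each macrophage, dendritic or unnamed myeloid cluster with at least 20 cells in that library (CPM, log axis), named by class and its leading genes. Points are sums over cells, lines are exact Poisson 95% intervals, and open triangles mark the upper end of the interval at 0 UMIs. Tslp is highest in the Cd209f, Lyve1 and Retnla cluster in both libraries, at 146 CPM in NCD and 175 in HFD.

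In HFD the second class with a high Il1rl1 level was mast cells or basophils. The 91 HFD cells of this class held 136 CPM (86.8 to 202), from 24 UMIs in 17 cells (18.7%), against 9.56 in the whole HFD library. They were 1.41% of kept HFD cells (1.14 to 1.73), and the NCD library held 2 such cells. Stromal markers in the class stood at 112% of their library level, and the Il1rl1 level was 14.2 times that of the library.

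HFD progenitors also held more Il1rl1 than NCD progenitors. The level was 1.17 CPM (18 UMIs) in NCD and 8.36 (6.43 to 10.7; 63 UMIs) in HFD, 7.15-fold higher (4.18 to 12.8). A single HFD cell held 9 of the UMIs, and 54 were left without it. The free RNA level computed from macrophage markers was 2.31 CPM in HFD, while mast cell markers in HFD progenitors stood at 47.5% of their library level and ILC2 markers at 75.8%, against 7.09% and 15.7% in NCD. The HFD progenitor level was also below that of the whole HFD library, 9.56. Subtracting the library profile in proportion to the macrophage markers gave a log2 ratio of 3.68, against 2.84 without it, and the part that free RNA from mast cells or ILC2 had in the difference was not tested. Progenitors held 37.5% of HFD Il1rl1 UMIs, beside 42.5% of all UMIs of kept HFD cells.

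The HFD progenitor UMIs were most dense in the interstitial subset, at 23.4 CPM (13.9 to 37.1; 18 UMIs in 12 of 289 cells), against 0.604 in NCD (2 UMIs in 659 cells). In the shared Efhd1 and Smpd3 cluster, where macrophage markers were at 2.4% and 2.15% of the library level, NCD held 1 UMI in 709 cells and HFD held 9 in 61 cells, of which 5 were in a single cell. The ratio was 101 with an interval of 14.0 to 4443. The Sfrp4 and Pi16 cluster held 20.3 CPM (11.1 to 34.1).

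The genes closest to Il1rl1 in pattern over the 23 sums were Mcm2, a subunit of the replicative helicase (r = 0.79), Furin, a proprotein convertase (0.77), Prc1 (0.75) and Ube2c (0.75), which act in cell division, and Cenpf, a centromere protein (0.73). Each was less close than the nearest genes of Il33 were to it.

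The co-receptor Il1rap was low and spread over many classes. Progenitors held 5.14 CPM (79 UMIs) in NCD and 5.71 (43 UMIs) in HFD, a ratio of 1.11 (0.748 to 1.63). NCD mesothelial cells were highest of the classes with at least 5 UMIs, at 20.4 (8.22 to 42.1), and NCD ILC2 held 10.7 (2.21 to 31.3; 3 UMIs). Macrophages held 3.06 and 2.33. Progenitors held 49.4% of Il1rap UMIs in NCD (41.4 to 57.4) and 60.6% in HFD (48.3 to 72.0), beside 47.4% and 42.5% of all UMIs. The NCD share was thus near the share of the class in all UMIs. Most Il1rap UMIs lay outside ILC2, which in NCD held 1.88% of them (0.388 to 5.38) beside 0.864% of all UMIs.

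Of the effectors, Il5, the eosinophil growth factor, was an ILC2 transcript. In NCD 21 of the UMIs lay in 12 ILC2, with 1 to 4 UMIs per cell and a level of 74.9 CPM (46.4 to 115), and 1 lay in a plasma cell. No Il5 UMI was found in the 7 HFD ILC2, where 3 UMIs would already be 157 CPM, so a level like that of NCD was not detectable at this depth. Of the 12 NCD ILC2 with Il5, 9 also held an Il1rl1 UMI and 7 an Areg UMI.

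Il13, which acts on macrophages and epithelia, was spread over several classes in NCD and lay mostly in mast cells or basophils in HFD. The 6 NCD UMIs lay singly in 2 ILC2 and in 1 dendritic cell, 1 macrophage, 1 mast cell or basophil and 1 unnamed cell. In HFD 16 of the UMIs were in 4 mast cells or basophils, which held 9, 4, 2 and 1 of them, with 1 more in a macrophage and 1 in a progenitor. The class level in HFD was 90.3 CPM (51.6 to 147). The libraries held 2 NCD and 91 HFD cells of that class, and 105 NCD and 7 HFD ILC2.

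The Mcpt8 protease gene marks basophils and Cma1 and Mcpt4 mark connective tissue mast cells. The 3 HFD cells of the class with Mcpt8 held 13 of the Il13 UMIs, with 3 of Il4 and 12 of Il6, while the 88 without it held 3, 2 and 23. Il1rl1 had 3 UMIs in the former and 21 in the latter. These markers did not separate all of the cells cleanly. The 3 cells also held 51 Cma1 and 6 Mcpt4 UMIs of 6948 in all, against 1859 and 711 of 170172 in the others. Of the 3 cells, 1 with 2 Mcpt8 UMIs and no Il13 held 44 of that Cma1 and all 6 Mcpt4 UMIs. The cell with 9 Il13 UMIs held 16 of Mcpt8 and 7 of Cma1, and the cell with 4 held 4 of Mcpt8 and 0 of Cma1. The HFD cells with 2 and 1 Il13 UMIs held no Mcpt8, and 116 and 74 UMIs of Cma1. Both NCD cells of the class held Mcpt8, with 9 and 47 UMIs, and each held 12 Il6 UMIs. Il13 and Il1rl1 were found together in 2 HFD cells of the class.

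Areg was highest in ILC2 as well. The NCD class held 860.0 CPM (755 to 975; 241 UMIs in 55 of 105 cells, at most 26 in 1 cell), and the 7 HFD cells 835 (477 to 1356), from 16 UMIs in 2 cells, 15 of them in 1 cell. NCD T cells held 42.4 CPM in 3 cells and HFD T cells 36.0 in 12 cells, a ratio whose interval held 1 (0.431 to 1.7). Lymphoid cells together stood at 339 in NCD and 56.8 in HFD, 5.97-fold lower (4.24 to 8.62), again with 105 against 7 ILC2. A T cell subset with a profile like regulatory T cells held 6 Areg UMIs in 3 of its 25 HFD cells (65.3 CPM, 24.0 to 142). These cells held no Il1rl1 UMI, and the 6 NCD cells of the subset none of either. The name rests on 5 markers past 1.5-fold. Foxp3, the regulatory T cell factor, had a UMI in only 1 of 114 NCD and 2 of 260 HFD T cells.

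Outside lymphocytes, the NCD mixed lymphoid and myeloid cluster held 157 CPM of Areg (118 to 204) and the Lyz1, Retnla and Ear2 cluster 51.9 (42.5 to 62.6), so unnamed cells made up 34.2% of the NCD Areg UMIs, beside 49.4% in ILC2. In HFD macrophages held 26.2%, progenitors 22.3%, T cells 21.4% and ILC2 15.5%. Of all UMIs of kept HFD cells these classes held 38.7%, 42.5%, 3.44% and 0.108% in that order. The progenitor level was 0.52 CPM in NCD and 3.05 in HFD, 5.87-fold higher (2.54 to 15.2), where the HFD free RNA level computed from macrophage markers was 1.39. In the same progenitors ILC2 markers stood at 15.7% of their library level in NCD and 75.8% in HFD, the whole HFD library held 5.75 CPM of Areg, and the part of free RNA from ILC2 was not tested. The genes closest to Areg in pattern were Ppp1cc, a phosphatase subunit (r = 0.82), Cxcr6 and Klrg1, receptors of tissue lymphocytes (0.82 and 0.78), Gna15, a G protein subunit (0.78), and Dennd2d (0.78).

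**Figure D5:**
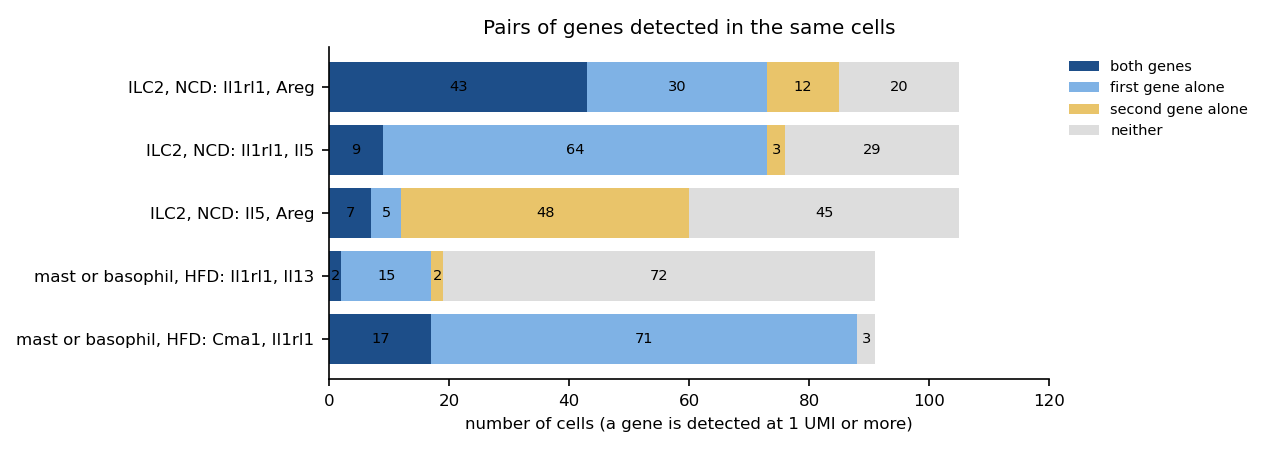
Number of cells in which both, 1 or neither gene of a pair had a UMI, in NCD ILC2 and in HFD mast cells or basophils (horizontal axis, cells). Of 105 NCD ILC2, 43 held both Il1rl1 and Areg, and all 17 mast cells or basophils with Il1rl1 also held the chymase gene Cma1.

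Within NCD ILC2, receptor and effector were often found in the same cell. Il1rl1 and Areg were both detected in 43 cells, Il1rl1 alone in 30, Areg alone in 12 and neither in 20. The counts depend on the depth of each cell. No HFD ILC2 held both. Foxp3 was detected in 1 of 114 NCD and 2 of 260 HFD T cells, and none of them held Il1rl1. These cells are too few to show whether the 2 transcripts occur together.

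Tslp, by contrast with Il33, was mainly a macrophage transcript. In NCD macrophages held 114 CPM (107 to 121; 928 UMIs), endothelial cells 26.3 (18.5 to 36.5; 36 UMIs), progenitors 19.3 (17.2 to 21.6) and mesothelial cells 2.92 (1 UMI). Of the endothelial UMIs, 27 lay in a cluster of 80 cells led by Gpihbp1, Rbp7 and Cldn5 with Retnla and Cd209f, at 55.9 CPM (36.8 to 81.3), where macrophage markers stood at 183% of their library level. The main endothelial cluster of 241 cells, with macrophage markers at 3.46%, held 7.75 (2.84 to 16.9; 6 UMIs), below progenitors. The macrophages held 71.2% of NCD Tslp UMIs and progenitors 22.8%. In HFD the macrophage level was 24.6 (21.0 to 28.6; free RNA level 5.32), 4.62-fold lower (3.92 to 5.48), and the progenitor level 14.9, 1.3-fold lower (1.04 to 1.63). Over clusters with little free RNA the progenitor levels were 19.2 in NCD and 15.9 in HFD. The log2 ratio of these was -0.27, with an interval that held 0 (-0.63 to 0.08). The thinned share of macrophages with a Tslp UMI was 19.6% in NCD (17.8 to 21.4) and 3.85% in HFD (2.84 to 5.08).

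The difference went with the clusters. In the Cd209f, Lyve1 and Retnla cluster the Tslp level was 146 CPM (136 to 156) in 1416 NCD cells and 175 (122 to 243) in 40 HFD cells, a ratio of 1.2 whose interval held 1 (0.829 to 1.68). A cluster of 172 HFD cells led by Ccl8, Fcna and Cd209f held 109 (79.5 to 145). The HFD cluster led by Ms4a7 and Trem2 held 27.2, and the large Mmp12 clusters held 14.8 with Trem2 and 5.56 with Gpnmb and Spp1. The NCD cluster led by Ccl12 and Mgl2 held 58.1. Of the clusters with both libraries, the dividing macrophages had a lower HFD level, at 45.4 and 6.21 (2 UMIs; 7.3-fold lower, 1.51 to 69.4).

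The receptor chain Crlf2 stood at 164 CPM in NCD and 148 in HFD macrophages, and at 26.1 and 47.9 in progenitors. Macrophage markers in these progenitors stood at 3.38% and 24.2% of their library level, and the part of free RNA was not tested. The chain Il7r was at 299 in NCD and 135 in HFD lymphoid cells, which held 105 and 7 ILC2. In T cells alone it was at 232 and 136. In macrophages Il7r was at 1.23 CPM (10 UMIs) in NCD and 52.6 (361 UMIs) in HFD, 42.9-fold higher (23.1 to 90.2), where 9.99% of all genes were over 2-fold higher.

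The wider pathway was read from lists of genes written with earlier results of these data known. Of the 15 signalling genes from MyD88 to NF-kB measured in lymphoid cells, none was over 2-fold higher in HFD and 4 were over 2-fold lower, with a median log2 ratio of -0.37 against -0.11 for all genes, where 12.4% of all genes were over 2-fold higher and 12.3% lower. Nfkbia, the NF-kB inhibitor that NF-kB itself induces, was at 1954 CPM in NCD and 666 in HFD, Nfkb1, an NF-kB subunit, at 264 and 82.3, and Sigirr, a receptor that dampens the pathway, at 51.6 and 23.9. Ikbkb, a kinase that acts on that inhibitor, was at 85.1 and 95.7. These sums too hold 105 NCD and 7 HFD ILC2. In T cells alone Nfkbia was at 780.0 and 622 and Nfkb1 at 110.0 and 76.9, and of 16 signalling genes none was over 2-fold higher and 4 were over 2-fold lower (median -0.42, all genes -0.12), where 14.0% of all genes were over 2-fold lower and 12.0% higher. Limited to the 4 genes with at least 50 CPM in T cells, none passed 2-fold lower. The T cells were also spread differently over clusters: one cluster held 165 of the 260 HFD T cells and 8 of the 114 in NCD. Over the class, stromal markers stood at 12.2% of their library level in NCD and 47.2% in HFD. In progenitors none of 13 passed 2-fold in either direction (median -0.24, all genes -0.21), with Nfkbia at 431 and 338 and Irak1, a kinase below MyD88, at 67.4 and 40.4. Of all genes in progenitors, 5.27% were over 2-fold higher and 4.38% lower.

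Genes of type 2 lymphocyte identity were lower in HFD lymphoid cells. Of 20 measured, 14 were over 2-fold lower and 1 over 2-fold higher (median -1.56, all genes -0.11). Of all genes in lymphoid cells, 12.3% were over 2-fold lower and 12.4% higher. Gata3 stood at 267 and 26.9 CPM, Klrg1, an inhibitory receptor, at 253 and 22.4, Arg1, the arginase of ILC2, at 182 and 12.0, and Calca, the calcitonin gene-related peptide gene, at 73.5 and 4.49. Gata3, Rora, Klrg1, Calca and others of this list were also used to name ILC2, and the lymphoid sums hold 105 NCD and 7 HFD ILC2. In T cells alone 7 of 17 were over 2-fold lower and 1 higher (median -0.8, all genes -0.12). Of all genes in T cells, 14.0% were over 2-fold lower and 12.0% higher, and the limit given above for T cells holds here too.

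In macrophages, 4 of 10 receptors and mediators of type 2 cytokines were over 2-fold lower in HFD and none higher (median -0.85, all genes -0.07), where 10.8% of all genes were over 2-fold lower and 9.99% higher. Of the 2 with at least 50 CPM, 1 was over 2-fold lower. Il4ra, the receptor chain shared by IL-4 and IL-13, was at 60.8 CPM in NCD and 17.0 in HFD, and Jak1, its kinase, at 149 and 85.5. Of 7 stromal signals to ILC2 measured in progenitors, 1 was over 2-fold higher and 1 over 2-fold lower (median 0.25), against 5.27% and 4.38% of all genes. The adhesion gene Icam1 was at 34.3 and 70.5, Vcam1 at 93.0 and 110.0, and the growth factor gene Tgfb1 at 31.9 and 63.6. In the same progenitors macrophage markers stood at 3.38% of their library level in NCD and 24.2% in HFD. What part free RNA had in these values was not tested.

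Among the enzymes known to cut IL-33 into more active or inactive forms, mast cell proteases were higher in HFD. Over the whole library 3 of the 4 measured were over 2-fold higher in HFD and none lower, where 3.11% of genes with at least 10 CPM were over 2-fold higher. The chymase gene Cma1 was at 0.916 CPM in NCD and 195 in HFD, Mcpt4, a chymase of mouse mast cells, at 0.355 and 86.1, and Casp8, a caspase of cell death, at 55.5 and 44.6. The third over 2-fold higher was Casp1, at 20 and 42.6, which is named here after its values were seen. HFD mast cells or basophils held 10784 CPM of Cma1. Cma1 was also found in HFD progenitors at 87.6, macrophages at 95.8, T cells at 80.2 and dendritic cells at 80.6 CPM, a like level in classes not known to make it, while the same NCD classes held at most 4.99. NK cells went the other way, with Cma1 in both libraries. They held 160 CPM in NCD (89.4 to 264; 15 UMIs in 37 cells) and 233 in HFD (107 to 443; 9 UMIs in 15 cells).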

How the data were processed

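The submitters deposited UMI counts per gene and barcode for 1 NCD and 1 HFD library, used here as deposited. Cell Ranger, Seurat and mm10 are named, per the submitters' processing notes, with no version. The members and gene lists were chosen with earlier results of these data known.

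Barcodes with at least 500 genes, 1000 UMIs and at most 20% mitochondrial UMIs were kept. Doublets were called with Scrublet at an expected rate of 5%, which called 182 in NCD. It called 0 in HFD, where the 342 barcodes with the highest scores, 5%, were left out instead. Both libraries were clustered together without integration (counts scaled to 10000 per cell, 2000 variable genes without the 7 members, 30 principal components, 15 neighbours, Leiden resolution 1, then 0.3 within each cluster of at least 40 cells), which gave 27 and then 59 clusters. Of 20 classes, a cluster took the one with the highest mean log2 fold of its markers, with at least 3 markers at 1.5-fold, and stayed unnamed where its 10 leading genes held more markers of another class. It also stayed unnamed where its first-round cluster best matched another lineage and shared more leading genes with it than it had class markers among them. Haemoglobin genes were left out of the leading genes, and a cluster led by epididymal genes was left unnamed, both after the clusters were seen.

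Counts were summed by class and library and scaled to 1000000 (CPM). With 1 library per diet no test was made. Ratios with a count of 0 use 3 counts. Depth per barcode ranged from 1556 to 23161 UMIs in NCD and from 1401 to 34339 in HFD, and the intervals in the text give the precision this allows. Free RNA was estimated from the median level of foreign markers, using macrophage markers for stromal classes and stromal markers for the rest. Named pathway genes are those with the largest log2 ratio, up to 4 of each of 9 lists, among genes with at least 50 CPM in a class, and lists count genes with at least 10. Pattern similarity used Pearson's r on log2(CPM + 1). Alternatives changed the cell filter, doublets, resolution, class assignment, scaling, thinning and free RNA. The interval code was tested on simulated data.

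Gene coordinates came from GENCODE vM21, to which 27722 of 27998 identifiers matched, and promoter windows from RefSeq on GRCm38.p6. Python 3.11.15 was used with scanpy 1.11.5, leidenalg 0.10.2, igraph 0.11.9, scikit-image 0.26.0, numpy 2.4.6, pandas 2.3.3, scipy 1.17.1, matplotlib 3.10.9, scikit-learn 1.9.0 and anndata 0.12.19.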

Additional observations from a re-analysis of the deposited data

How the results depend on the processing

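No paired analysis was possible because there is 1 library per diet, and no replicate could be left out. No difference whose interval excluded 1 changed direction under the alternatives run. Il1rap in progenitors, whose interval held 1, went from a log2 ratio of 0.15 to -0.07 with free RNA subtracted. In all, 107 values stayed within their interval (counts of genes, within 1.5 times) and 28 did not. The share of Il33 UMIs in progenitors and mesothelial cells, 95.9% in NCD and 78.2% in HFD, became 92.3% (clusters at resolution 2), 83.5% (class by each cell's marker score) and 98.7% (clusters with little free RNA) in NCD, and 84.2% (no cell filter), 89.6% (stricter filter of 1000 genes and 10% mitochondrial UMIs), 81.8% (doublets kept), 68.6% (marker score) and 96.2% (little free RNA) in HFD. The lymphoid share of NCD Il1rl1 UMIs, 21.8%, became 28.4% with doublets kept, 28.3% at resolution 2 and 29.3% by marker score. On the log2 scale, the HFD over NCD ratio of Il1rl1 in progenitors, 2.84, became 3.74 (stricter filter), 3.98 (resolution 2), 4.07 (marker score) and 3.68 (free RNA subtracted). Areg in lymphoid cells, -2.58, became -1.52 with the stricter filter. With free RNA subtracted, Tslp in macrophages went from -2.21 to -2.53, Tslp in progenitors from -0.38 to -0.75 and Il1rl1 in macrophages from -1.97 to -2.61, and by marker score Tslp in macrophages was -1.81. Over clusters with little free RNA Tslp in progenitors was -0.27, and the interval then held 0 (-0.63 to 0.08). Thinned to 1400 UMIs, Il33 was found in 2.97% of NCD and 7.67% of HFD progenitors, and Tslp in 13.8% of NCD macrophages. With lists limited to genes at 50 CPM, identity genes higher in lymphoid cells went from 1 to 0, IL-1 family genes higher in progenitors from 2 to 0, stromal signals lower in progenitors from 1 to 0, type 2 receptors lower in macrophages from 4 to 1 and other cytokines lower in lymphoid cells from 3 to 0, since fewer genes are then counted. For the remaining moved values the cause was not tested. The Il33 ratio in mesothelial cells gave no value because HFD held 6 such cells. The alternatives for Il1rl1 in progenitors, macrophages and dendritic cells and for Tslp in macrophages were chosen after seeing the data. With 7 HFD ILC2, an Il5 level under 157 CPM was not detectable.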

Other observations

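Gene groups around the pathway that the account above does not cover were also counted, as numbers of genes over 2-fold higher or lower in HFD. Of 5 IL-1 family ligands and receptors measured in progenitors, 2 were higher and none lower (median log2 ratio 0.05, all genes -0.21, of which 5.27% were higher and 4.38% lower). They were Il1b, at 7.93 CPM in NCD and 24.7 in HFD, and the decoy receptor gene Il1r2, at 2.8 and 14.3, both named after their values were seen, beside macrophage markers at 3.38% and 24.2% of the library in the same progenitors. The signalling receptor gene Il1r1 was at 50.7 and 52.6. In macrophages 2 of 3 were higher and none lower, with Il1b at 26.1 and 88.1, where 9.99% of all genes were higher and 10.8% lower.

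Of 3 EGF family genes measured in progenitors none passed 2-fold either way (median -0.24), and Egfr, the receptor of amphiregulin, was at 217 CPM in NCD and 117 in HFD. Of the other type 2 and ILC2 cytokines, Penk, the enkephalin precursor gene, was over 2-fold lower in progenitors (1101 and 294) and was the 1 gene over 2-fold higher in lymphoid cells (45.1 and 124), where stromal markers, relative to the whole library, were at 7.16% and 44.0%. Il6 was at 98.2 and 162 in progenitors. In lymphoid cells 3 of 6 such cytokines were over 2-fold lower, against 12.3% of all genes.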
